A study of Mus musculus with 12 samples.

Results

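The endothelial leukocyte adhesion receptors comprised 9 genes, chosen by symbol from the 21956 genes of the count table, and each symbol matched 1 row. Icam1, Vcam1, Sele and Selp formed the inducible set. Pecam1, Icam2, Cdh5 and Cd34 formed the constitutive endothelial set, and Selplg was taken as the leukocyte ligand of the selectins. RNA-seq was performed on brain tissue of 12 mice in 4 groups of 3, in which intracerebral hemorrhage (ICH) or sham surgery was crossed with a microglial deletion of Fabp4, the gene of a fatty acid carrier protein. The questions were how the receptor transcripts differed between ICH and sham tissue, and whether the deletion altered that difference.

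All 4 groups carried floxed Fabp4 alleles. Fabp4flox/flox mice were the controls. Fabp4CKO mice also carried a tamoxifen-inducible Cre (creERT2) at Tmem119, a microglial gene, and were operated on 14 days after the last of 7 daily tamoxifen doses (150 mg/kg). Collagenase was injected into the right striatum in the ICH-Fabp4flox/flox and ICH-Fabp4CKO groups. Sham-Fabp4flox/flox and Sham-Fabp4CKO mice were operated on without collagenase. Tissue within 1 to 2 mm of the hematoma was taken 48 h after surgery, as slices of 1 mm. The study excluded mice without neurological deficits, a rule given with its ICH model. Whether the controls received tamoxifen is not stated, and neither are the age and sex of these 12 mice or whether the mice used for RNA were perfused. Each library held RNA of all cells in the tissue piece, so that fewer cells of a type and less RNA per cell cannot be told apart.

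Endothelial cells recruit leukocytes in steps. P-selectin (Selp) and E-selectin (Sele) catch rolling cells through PSGL-1 (Selplg) and other glycoproteins, ICAM-1 and VCAM-1 then bind leukocyte integrins, and cells cross the vessel wall between junctions that hold PECAM-1 and VE-cadherin (Cdh5). In resting brain vessels the selectins, ICAM-1 and VCAM-1 are scarce and cytokines such as TNF and IL-1 raise them through NF-kB, whereas Pecam1, Icam2, Cdh5 and Cd34 are expressed by endothelium at rest. Several of the genes are not limited to endothelium. For example, platelets and megakaryocytes also make P-selectin, and leukocytes, microglia included, make Selplg. Which cells made each transcript was not measured here, for Vcam1, Icam1 and the constitutive genes as well.

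Total counts ranged from 15650813 to 22406216 per library, and values are counts per 1000000 (CPM) after TMM scaling of the library sizes. Fabp4 had 46, 63 and 24 counts in the ICH-Fabp4flox/flox mice and 5, 3 and 10 in the ICH-Fabp4CKO mice, against 1 or 2 in each Sham-Fabp4flox/flox mouse and 0 in each Sham-Fabp4CKO mouse. Endothelial markers were present in every library, with a summed level over 15 genes of 393 to 1720 CPM. Some libraries stood apart. Mitochondrial transcripts made up 16.3% of the counts of ICH-Fabp4flox/flox mouse 1, the highest share of the 12 libraries, whose lowest was 7.90%. ICH-Fabp4CKO mouse 1 had 1 count over 4 Y-linked genes, where the other 11 mice had 1302 to 2251. Choroid plexus markers summed to 838 to 3130 CPM in the Sham-Fabp4flox/flox mice and to 13.2 to 28.5 CPM in the other 9, so that all 3 control sham libraries differed from the rest in this respect.

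ICH was first compared with sham in Fabp4flox/flox mice. All 9 receptor genes rose past the adjusted threshold of 0.05 (quasi-likelihood test of edgeR, Benjamini-Hochberg adjustment over 14719 genes), where 26.2% of the genes tested were higher and 19.3% lower. The groups overlapped for none of the 9, where 34.4% of the genes tested did not overlap and were higher. Sele and Selp had few sham counts and passed the filter on low counts through the ICH mice alone. For these selectins the direction and the lack of overlap were therefore set in advance. The median log2 fold change was 4.55 over the 4 inducible genes, 2.31 over the 4 constitutive genes and 0.02 over all genes tested. The inducible genes covered a wide range, from 1.77 for Vcam1 to 7.56 for Selp, while the constitutive genes lay between 2.19 and 2.43.

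**Figure D1:**
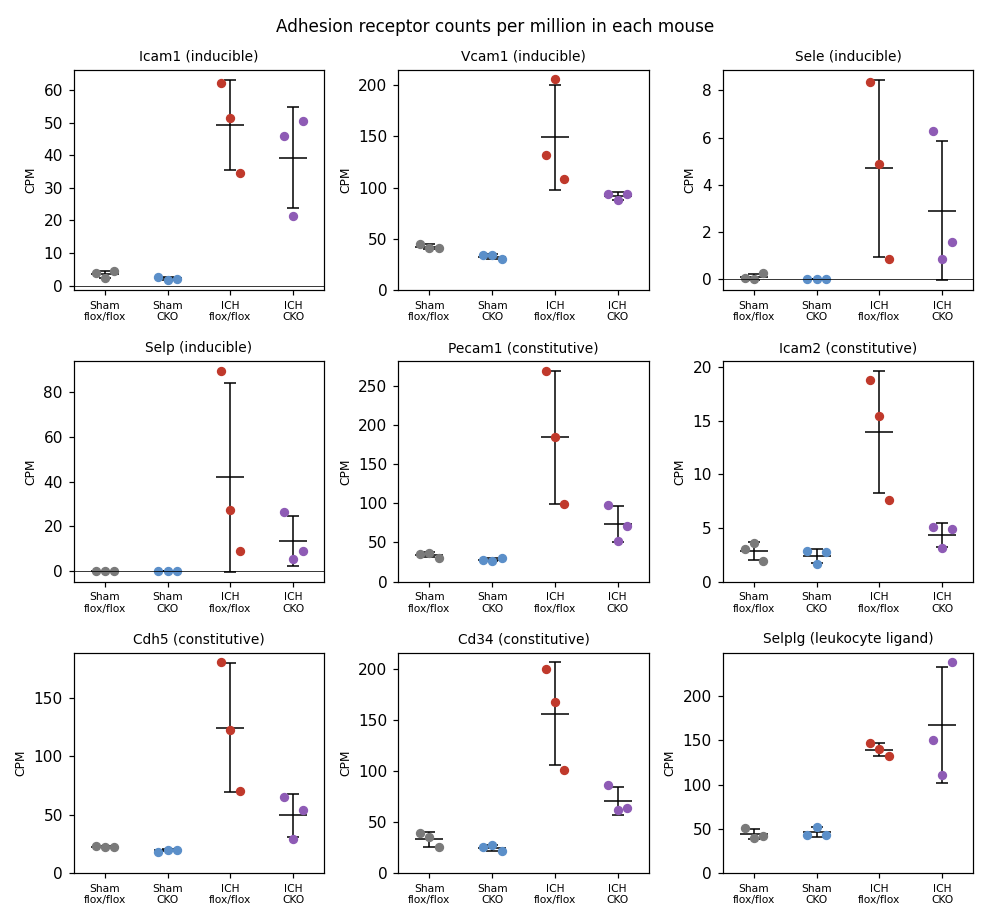
CPM of the 9 genes in each of the 12 mice. Each point is a mouse, the horizontal mark is the group mean and the bar its SD (n = 3), and each panel has its own axis. All ICH-Fabp4flox/flox points lie above all Sham-Fabp4flox/flox points in every panel, and in the ICH-Fabp4CKO group Selplg reached the highest value, 239 CPM.

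Icam1 (ENSMUSG00000037405), the ligand of the leukocyte integrins LFA-1 and Mac-1, had 3.85, 2.35 and 4.39 CPM in the Sham-Fabp4flox/flox mice and 62.1, 51.4 and 34.6 CPM in the ICH-Fabp4flox/flox mice. The ICH mice were all far above the sham mice, 13.5-fold in the fit (95% interval 8.27 to 22, adjusted p = 0.00035, edgeR). Vcam1 (ENSMUSG00000027962), the ligand of the integrin VLA-4, had 45.3, 40.8 and 40.9 CPM in sham and 132, 206 and 109 CPM after ICH. Its sham level was much closer to its ICH level than that of Icam1, and the rise was 3.42-fold (95% interval 2.32 to 5.04, adjusted p = 0.00149, edgeR).

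The selectins were near the floor of the counts in sham tissue. Sele (ENSMUSG00000026582) had 1, 0 and 5 counts in the Sham-Fabp4flox/flox mice and 119, 78 and 16 counts after ICH, or 8.37, 4.86 and 0.85 CPM. Selp (ENSMUSG00000026580) had 3, 3 and 6 counts in sham and 1269, 441 and 170 counts after ICH, or 89.3, 27.5 and 9.03 CPM. ICH mouse 1 was the highest and ICH mouse 3 the lowest for both selectins, by 9.85-fold for Sele and 9.88-fold for Selp within the same group. The fitted rise was 40.9-fold for Sele (95% interval 6.83 to 245, adjusted p = 0.00793, edgeR) and 189-fold for Selp (34.6 to 1028, adjusted p = 0.00165). Single libraries set the size of both. Without ICH-Fabp4flox/flox mouse 1, the library with the high mitochondrial share, the log2 fold change was 6.39 for Selp, against 7.56 with it, and 4.66 for Sele, against 5.35. Without Sham-Fabp4flox/flox mouse 3, which held 5 of the 6 sham counts of Sele, that of Sele was 7.06. Both selectins stayed past the adjusted threshold with any 1 of the 6 libraries left out.

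The constitutive genes rose by similar factors. Pecam1 (ENSMUSG00000020717), a junctional receptor used during transmigration, had 35.1, 36.6 and 30.5 CPM in sham and 269, 185 and 99.5 CPM after ICH. Cdh5 (ENSMUSG00000031871), the cadherin of endothelial adherens junctions, had 22.8, 22 and 22.3 CPM in sham and 181, 123 and 70.1 CPM after ICH. Icam2 (ENSMUSG00000001029), an integrin ligand of resting endothelium, had 3.04, 3.61 and 1.91 CPM in sham and 18.8, 15.4 and 7.65 CPM after ICH. For these genes too the ICH values were above every sham value and mouse 1 was highest and mouse 3 lowest. Cd34 (ENSMUSG00000016494), a sialomucin of endothelium and progenitor cells, went from 39.1, 34.9 and 25.2 CPM to 200, 168 and 101 CPM. The fitted rise was 5.23-fold for Pecam1, 5.37-fold for Cdh5, 4.71-fold for Icam2 and 4.57-fold for Cd34, with adjusted p from 0.00113 to 0.00373 (edgeR). Over the 9 genes, ICH-Fabp4flox/flox mouse 1 was the highest of its group for 8 and mouse 3 the lowest for 9. The summed endothelial markers took the same order, with 1720 CPM in mouse 1, 1107 in mouse 2 and 877 in mouse 3, against 420 to 477 CPM in sham. Their 15 genes were all higher at the adjusted threshold, where 26.2% of all genes tested were, with a median log2 fold change of 1.63. Their part in the rise of the receptors was not tested beyond the ratios to these markers. Neuron markers took the reverse order, with sums of 1126, 1970 and 2809 CPM in ICH-Fabp4flox/flox mice 1, 2 and 3, and their part was not tested.

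Selplg (ENSMUSG00000048163), the PSGL-1 gene, had 51.1, 39.9 and 41.4 CPM in sham and 147, 140 and 132 CPM after ICH, and the rise was 3.08-fold (95% interval 2.43 to 3.91, adjusted p = 0.000408, edgeR). It was the least variable member after ICH, with a coefficient of variation of 5.11% where those of the other 8 were 28.0% to 100.2%. Its pattern over the 12 libraries was closest to Tmem119, a microglial gene, with a root mean square difference of 0.13 on mean-centred log2 CPM among 15094 genes, and then to Wasf2 at 0.14. The summed microglial markers were 353 to 425 CPM in Sham-Fabp4flox/flox and 1449 to 1697 CPM in ICH-Fabp4flox/flox mice.

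Levels of different genes were set side by side only per kilobase of exon length. In Sham-Fabp4flox/flox tissue Selplg came first at 10.3 CPM per kb, followed by Pecam1 at 5.47, Cdh5 at 5.32, Vcam1 at 4.77 and Cd34 at 4.54. Icam2 followed at 1.5 and Icam1 at 0.81, and Selp and Sele came last at 0.047 and 0.035. The mice overlapped between Pecam1 and Cdh5, between Vcam1 and Cd34, between Icam2 and Icam1 and between the selectins. Vcam1 therefore stood among the constitutive genes in sham tissue, on this scale. After ICH the order began with Selplg at 32.7, Pecam1 at 29.6, Cdh5 at 29.6 and Cd34 at 21.4 CPM per kb, and continued with Vcam1 at 16.8, Icam1 at 11.3, Selp at 9.5, Icam2 at 7.32 and Sele at 1.61. Each neighbouring pair in the ICH order overlapped except Icam2 and Sele.

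Promoters were read for the members that the RefSeq table (mouse build GRCm38.p6) holds, to show the sequence at the start of 3 inducible genes beside that of 1 constitutive gene. It held Icam1 (chr9:21015690-21015989), Sele (chr1:164047984-164048283), Selp (chr1:164115014-164115313) and Cd34 (chr1:194938571-194938870), all on the plus strand, and each run covers 250 bases before the start and 50 bases from it on. Vcam1, Pecam1, Icam2, Cdh5 and Selplg were not matched. Capitals mark every match, on either strand, to a long form of the NF-kB site (GGG and CC with any 5 bases between them), to GGAAANTCC (a stricter form), TGANTCA (a loose form of the AP-1 site), TATAAA (the TATA box) or CAGGAAG (a form of the ETS site), with N for any base.
Icam1: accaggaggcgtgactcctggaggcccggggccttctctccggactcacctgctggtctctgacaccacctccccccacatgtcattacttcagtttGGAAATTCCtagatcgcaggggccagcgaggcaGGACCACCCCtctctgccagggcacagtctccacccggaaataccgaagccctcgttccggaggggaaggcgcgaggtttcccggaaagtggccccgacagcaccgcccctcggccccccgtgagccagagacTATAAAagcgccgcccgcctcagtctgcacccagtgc
Sele: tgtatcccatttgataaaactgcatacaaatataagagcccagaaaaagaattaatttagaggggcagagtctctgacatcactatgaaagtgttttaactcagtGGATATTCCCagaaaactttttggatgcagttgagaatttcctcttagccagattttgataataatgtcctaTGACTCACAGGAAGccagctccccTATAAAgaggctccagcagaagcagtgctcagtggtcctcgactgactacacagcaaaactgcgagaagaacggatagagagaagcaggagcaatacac
Selp: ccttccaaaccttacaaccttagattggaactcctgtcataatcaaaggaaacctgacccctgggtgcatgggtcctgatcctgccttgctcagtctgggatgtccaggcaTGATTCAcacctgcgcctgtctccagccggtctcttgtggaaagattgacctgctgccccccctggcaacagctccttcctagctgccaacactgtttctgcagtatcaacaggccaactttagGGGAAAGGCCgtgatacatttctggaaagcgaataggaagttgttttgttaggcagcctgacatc
Cd34: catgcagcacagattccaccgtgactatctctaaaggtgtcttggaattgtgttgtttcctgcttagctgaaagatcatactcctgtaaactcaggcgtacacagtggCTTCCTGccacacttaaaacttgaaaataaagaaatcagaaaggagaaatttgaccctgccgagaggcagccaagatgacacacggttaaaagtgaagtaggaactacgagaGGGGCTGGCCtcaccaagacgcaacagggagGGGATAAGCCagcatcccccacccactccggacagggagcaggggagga

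The Icam1 promoter held GGAAATTCC with its first base 153 bases before the start, a match to GGAAANTCC, which 1.25% of the 32851 promoters in the table held. It also held the long form on the opposite strand 120 bases before the start, and TATAAA after the start. The Sele promoter held the long form on the opposite strand 145 bases before the start, TGACTCA at 73 bases, CAGGAAG directly after it and TATAAA at 49 bases. Selp had TGATTCA 139 bases and the long form, as GGGAAAGGCC, 15 bases before the start, and no TATAAA in this window. Cd34 had the long form 30 bases before the start and again just after it, and CAGGAAG on the opposite strand. The long form is common, in 50.8% of all promoters, against 7.81% for TGANTCA, 13.6% for TATAAA and 13.3% for CAGGAAG, and none of these matches overlapped another. The matches describe these letters and were not tested for binding.

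ICH was compared with sham in Fabp4CKO mice in the same way, with no mouse shared with the first comparison. Of the 9 genes, 8 rose past the adjusted threshold (edgeR, 14737 genes), where 24.5% of the genes tested were higher and 11.1% lower. For all 9 the groups did not overlap, where 33.2% of the genes tested did not overlap and were higher. Sele and Selp, with no count in sham, passed the filter on low counts through the ICH mice alone. For these selectins the direction and the lack of overlap were therefore set in advance. The median log2 fold change was 1.37 over the constitutive genes. Over the inducible genes it was 5.02 with the selectins at their lower bounds, and 0.01 over all genes tested. The number of members called fell to 4 without Sham-Fabp4CKO mouse 1 or mouse 2 and to 3 without mouse 3, to 7 without ICH-Fabp4CKO mouse 1 and 6 without mouse 3, and was 9 without mouse 2. Over all genes tested the share called higher moved as well, from 24.5% to 5.32%, 5.12% and 4.69% without Sham-Fabp4CKO mouse 1, 2 or 3, and to 9.63%, 34.8% and 15.8% without ICH-Fabp4CKO mouse 1, 2 or 3. Icam1, Vcam1 and Cd34 were called with any 1 library left out.

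Icam1 had 2.77, 1.84 and 2.02 CPM in the Sham-Fabp4CKO mice and 46.1, 21.5 and 50.4 CPM in the ICH-Fabp4CKO mice, a rise of 17.8-fold (95% interval 9.15 to 34.6, adjusted p = 0.00478, edgeR). Vcam1 had 34.5, 33.8 and 29.9 CPM in sham and 93.8, 87.5 and 93.9 CPM after ICH, a rise of 2.81-fold (2.32 to 3.39, adjusted p = 0.00478). The ICH-Fabp4CKO mice differed little from each other in Vcam1, with a coefficient of variation of 4.01%, and by more in Icam1, at 39.7%. Sele and Selp had 0 counts in each Sham-Fabp4CKO mouse. After ICH they had 97, 16 and 29 counts and 409, 104 and 165 counts. Against a floor of 3 counts over the sham group, Sele was at least 59.2-fold higher and Selp at least 283-fold higher (adjusted p = 0.0281 and 0.0119, edgeR). ICH-Fabp4CKO mouse 1 held 97 of the 142 counts of Sele and 409 of the 678 of Selp, and without it the bounds were 26.6-fold and 159-fold. These limits cover counting error only.

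Pecam1 had 27.3, 26.7 and 30.2 CPM in Sham-Fabp4CKO and 97.9, 51.9 and 71.1 CPM in ICH-Fabp4CKO mice, a rise of 2.63-fold (adjusted p = 0.011, edgeR). Cdh5 rose 2.55-fold (adjusted p = 0.0204) from 18.4, 20.01 and 19.7 CPM to 65.4, 28.9 and 53.8 CPM. Cd34 rose 2.87-fold (adjusted p = 0.00589) from 25.1, 27.8 and 21.4 CPM to 86.5, 62.1 and 64.1 CPM. Mouse 2 was the lowest ICH-Fabp4CKO mouse for all 9 genes. Its neuron markers summed to 3773 CPM, against 1783 in mouse 1 and 1219 in mouse 3. The part of neuronal content in these values was not tested. Icam2 had 2.82, 1.61 and 2.76 CPM in sham and 5.11, 3.09 and 4.86 CPM after ICH, 1.82-fold in the fit (95% interval 1.05 to 3.14, adjusted p = 0.0782), and was the only member short of the threshold. With DESeq2 its adjusted p was 0.0482. Selplg had 42.9, 52.5 and 43.3 CPM in sham and 151, 111 and 239 CPM after ICH, a rise of 3.62-fold (adjusted p = 0.0095). Of the 15 endothelial markers 5 were higher at the adjusted threshold in these mice, where 24.5% of all genes tested were. The median log2 fold change of the 15 was 0.40, and their sum was 512 to 557 CPM after ICH against 393 to 424 CPM in sham.

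**Figure D2:**
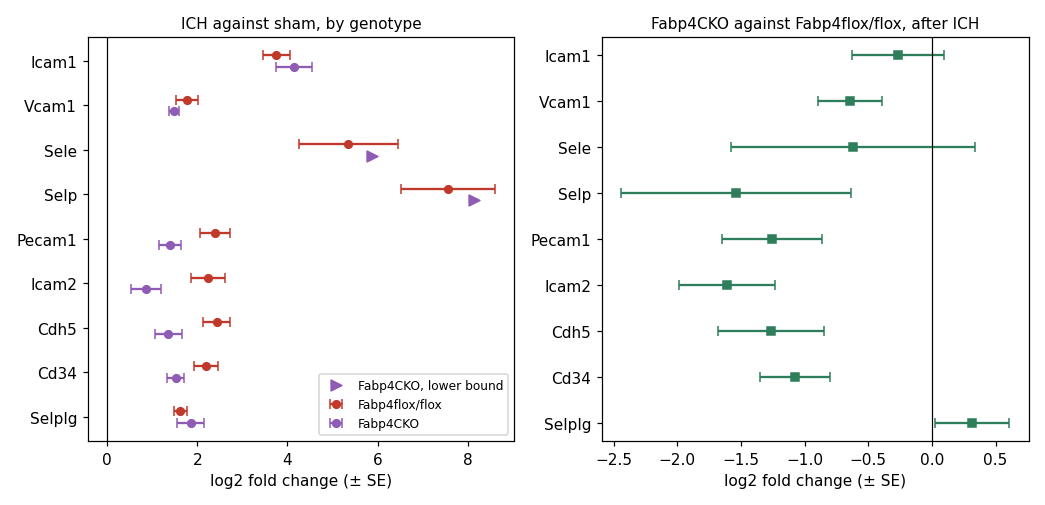
Log2 fold changes of the 9 genes with their SE. The left panel gives ICH against sham in each genotype, with triangles for the lower bounds of Sele and Selp in Fabp4CKO mice, whose sham libraries held no count. The right panel gives Fabp4CKO against Fabp4flox/flox after ICH, where the constitutive genes lie between -1.61 and -1.08 and Selplg at 0.31.

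The effect of the deletion was compared directly in the ICH mice, whose ICH-Fabp4flox/flox libraries also served in the first comparison. No member differed at an adjusted p under 0.05, and neither did any of the 14600 genes tested (0% in either direction), although 1777 genes had p below 0.05 before adjustment. DESeq2 called 255 genes higher and 323 lower, and a fit of all 12 libraries 154 higher and 208 lower. A second, looser rule asked for a 1.5-fold change and p below 0.05 before adjustment. By it 5 of the 9 members were lower in ICH-Fabp4CKO mice, where 4.43% of the genes tested were lower, and none was higher, where 4.4% were. The 5 were Vcam1 and the 4 constitutive genes. The same 5 had groups that did not overlap, where 11.5% of the genes tested did not overlap and were lower and 8.3% did not overlap and were higher. The median log2 difference was -1.26 over the constitutive genes, -0.63 over the inducible genes and 0.06 over all genes tested.

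Icam2 had 18.8, 15.4 and 7.65 CPM in ICH-Fabp4flox/flox and 5.11, 3.09 and 4.86 CPM in ICH-Fabp4CKO mice, 0.327 times the control level (95% interval 0.175 to 0.613, adjusted p = 0.295, edgeR). The ratio was 0.419 for Pecam1 (0.218 to 0.806, adjusted p = 0.343), 0.416 for Cdh5 (0.208 to 0.832, adjusted p = 0.35) and 0.474 for Cd34 (0.299 to 0.751, adjusted p = 0.313). Every ICH-Fabp4CKO mouse was below every ICH-Fabp4flox/flox mouse for these 4 genes, but narrowly for Pecam1, at 97.9 against 99.5 CPM. With DESeq2 Icam2 and Cd34 passed the adjusted threshold (adjusted p = 0.00677 and 0.0186), where 2.21% of all genes tested were lower. They did so in the edgeR fit of all 12 libraries (adjusted p = 0.0473 and 0.0464), where 1.38% were lower.

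Vcam1 was 0.640 times the control level (95% interval 0.420 to 0.976, adjusted p = 0.392), with 87.5 to 93.9 CPM in the ICH-Fabp4CKO mice and 109 to 206 CPM in the ICH-Fabp4flox/flox mice. For the remaining inducible genes the mice of the groups overlapped. Icam1 was at 0.832 (95% interval 0.458 to 1.51), Sele at 0.651 (0.132 to 3.21) and Selp at 0.345 (0.0768 to 1.55), intervals that hold both no difference and differences of more than 1.5-fold. Selplg was at 1.24 (0.763 to 2.02). Without ICH-Fabp4flox/flox mouse 1, the number of members lower under the second rule was 3 (Vcam1, Icam2 and Cd34) and the log2 difference of Sele turned from -0.62 to 0.07. It was also 3 without both libraries that stood apart, an alternative chosen after seeing the data. Selp moved from -1.54 to -0.38 without ICH-Fabp4flox/flox mouse 1 and to -2.44 without ICH-Fabp4CKO mouse 1. Icam1 turned to 0.03 without ICH-Fabp4CKO mouse 2 and Selplg to -0.04 without mouse 3, so that Sele, Icam1 and Selplg each changed sign with 1 library left out.

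Cell type markers were compared between the same ICH mice. Of the 15 endothelial markers, 13 were lower under the second rule in ICH-Fabp4CKO mice, where 4.43% of all genes tested were. None of the 15 passed the adjusted threshold, and their median log2 difference was -1.15. Their sum was 512 to 557 CPM in ICH-Fabp4CKO and 877 to 1720 CPM in ICH-Fabp4flox/flox mice, with no overlap. The venous endothelial markers, where leukocytes leave the blood, were 94.3 to 179 CPM against 214 to 645 CPM. Neutrophil markers were 73.6 to 330 CPM in ICH-Fabp4CKO and 53.4 to 96.3 CPM in ICH-Fabp4flox/flox mice, monocyte and macrophage markers were 1022 to 8451 and 763 to 1990 CPM, and microglial markers 1493 to 4355 and 1449 to 1697 CPM, all 3 with overlap. Under the second rule 5 of 7 neutrophil markers were higher, where 4.4% of all genes tested were. Their median log2 difference was 2.59, and none passed the adjusted threshold. T and NK cell markers were 3.89 to 6.14 CPM in ICH-Fabp4CKO and 7.74 to 14.6 CPM in ICH-Fabp4flox/flox mice, with no overlap. Of their 5 genes tested, 2 were lower under the second rule, where 4.43% of all genes tested were. Platelet markers were 7.14 to 49.9 and 18.2 to 60.8 CPM, mostly through Pf4, while Gp1bb, Gp5, Gp6, Gp9 and Treml1 never exceeded 24 counts in a library. Neuron markers were 1219 to 3773 CPM in ICH-Fabp4CKO and 1126 to 2809 CPM in ICH-Fabp4flox/flox mice. Striatal neuron markers were 821 to 1940 and 684 to 2615 CPM, and both lists overlapped between the groups. The part of these cell types in the differences of the receptors was not tested.

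**Figure D3:**
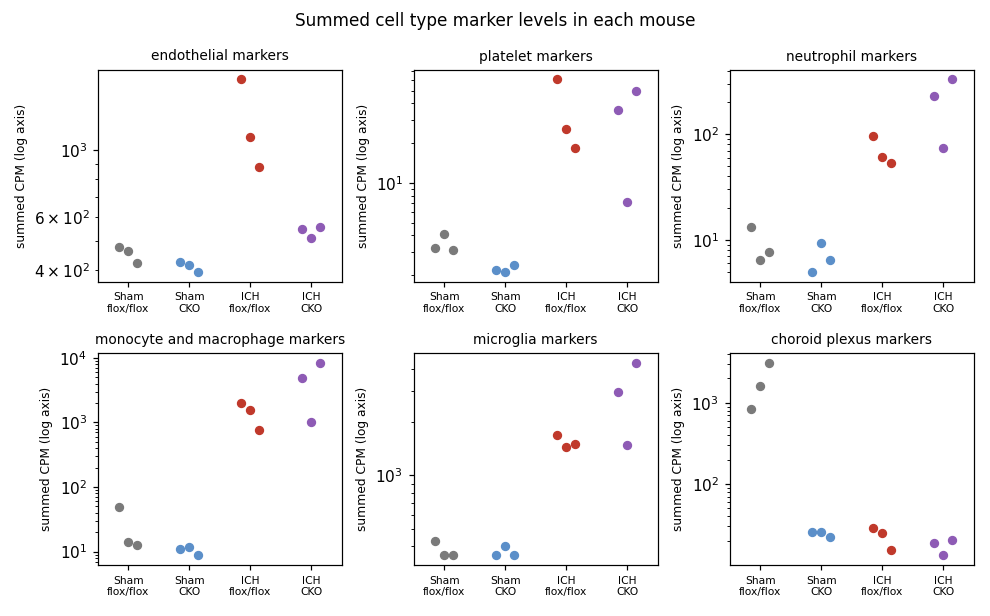
Summed CPM of 6 marker lists in each mouse, on log axes that differ between panels. Endothelial markers separate the ICH groups, at 512 to 557 against 877 to 1720 CPM, and choroid plexus markers are high only in the 3 Sham-Fabp4flox/flox mice.

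The difference between the genotypes in the effect of ICH was tested as an interaction over all 12 libraries. No member passed the adjusted threshold, where 0.00663% of the 15089 genes tested were lower and 0.0133% higher, that is 3 genes. No member passed with DESeq2 either. Of the 3 genes, Ttr and Folr1 are choroid plexus markers. The interactions of the members rest on the same Sham-Fabp4flox/flox libraries, which carried choroid plexus RNA, and its part in them was not tested. Under the second rule Pecam1, Icam2 and Cdh5 rose less in Fabp4CKO mice, 3 of the 9 members, where 3.29% of the genes tested were lower, and none rose more, where 4.61% of the genes did. Their interaction terms were -1.04 (SE 0.44, adjusted p = 0.459, edgeR), -1.43 (SE 0.54, adjusted p = 0.408) and -1.13 (SE 0.46, adjusted p = 0.444) on the log2 scale. Cd34 was at -0.72 and Vcam1 at -0.33. Leaving out 1 library moved the count of 3 to between 0 and 4, and it was 0 without Sham-Fabp4flox/flox mouse 3 or ICH-Fabp4flox/flox mouse 1, 1 without Sham-Fabp4flox/flox mouse 2, ICH-Fabp4flox/flox mouse 2, ICH-Fabp4CKO mouse 2 or any Sham-Fabp4CKO mouse, and 2 without Sham-Fabp4flox/flox mouse 1 or ICH-Fabp4CKO mouse 3. The interaction of Icam1 was 0.35 with an SE of 0.50 and that of Selplg 0.19 with an SE of 0.33. Those of Sele and Selp had SEs of 2.78 and 3.18 and could not place the selectins on either side. Without both libraries that stood apart, Selp rose more in Fabp4CKO mice under the second rule, at 3.78 with an SE of 1.57 (adjusted p = 0.635, edgeR), a size that depends on sham counts of 0, and Pecam1 and Cdh5 rose less.

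In sham tissue the deletion was compared for 7 members, since Sele and Selp did not pass the filter on low counts. None differed at an adjusted p under 0.05 (edgeR, 14395 genes, of which 0.111% were lower and 0% higher), and 16 genes passed in all. With DESeq2 none of the 7 passed either. By unadjusted p, 3 of the 7 were under 0.05, which were Vcam1, Pecam1 and Cd34, as were 10.2% of the genes tested. Vcam1 had 34.5, 33.8 and 29.9 CPM in Sham-Fabp4CKO against 45.3, 40.8 and 40.9 CPM in Sham-Fabp4flox/flox mice, a log2 difference of -0.36 (SE 0.09, unadjusted p = 0.005, adjusted p = 0.392, edgeR). Vcam1, Pecam1 and Cdh5 had groups that did not overlap and were lower, where 8.86% of the genes tested did so and 5.98% did so in the other direction. No member changed by the second rule, where 3.23% of the genes tested were lower and 0.868% higher. Without Sham-Fabp4flox/flox mouse 3, Vcam1, Pecam1 and Cd34 passed the adjusted threshold, at -0.38, -0.34 and -0.56, in a fit that called 9.12% of all genes tested lower and 10.5% higher. Striatal neuron markers summed to 954, 1089 and 3060 CPM in Sham-Fabp4flox/flox mice 1, 2 and 3. They summed to 1990 to 3715 CPM in Sham-Fabp4CKO mice, and the part of striatal content in these differences was not tested. Selp had 12 counts over the Sham-Fabp4flox/flox mice and 0 over the Sham-Fabp4CKO mice, and Sele 6 and 0.

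Choroid plexus markers moved with this comparison. Ttr, the transthyretin gene, was lower in Sham-Fabp4CKO mice by a log2 difference of -6.63 (adjusted p = 0.0202, edgeR), Aqp1 by -5.21 and Kl by -4.00. With 10 counts required in every library Kl lost its call (adjusted p = 0.113, edgeR). Each of the 3 lost its call without Sham-Fabp4flox/flox mouse 2 or any Sham-Fabp4CKO mouse, with adjusted p of 0.0908 to 0.251 for Ttr, 0.176 to 0.386 for Aqp1 and 0.192 to 0.465 for Kl, while the differences stayed at -6.73 to -6.51, -5.27 to -5.19 and -4.17 to -3.89. In sham tissue this cannot be told apart from the genotype, since all 3 Sham-Fabp4flox/flox libraries carried choroid plexus RNA. Its part in the sham levels of the receptors was not tested. The Sham-Fabp4CKO libraries had choroid plexus markers at 22.5 to 26 CPM.

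The members were then related to the summed count of the 15 endothelial markers in the same mouse, in place of the whole library. For Selplg, the leukocyte ligand, this sets a transcript against markers of another cell type. ICH was compared with sham by an exact two-sided permutation test of the difference averaged over both genotypes, with labels permuted within genotype. Its smallest p over its 400 arrangements is 0.005, and 9 such tests were made. Each exact p is thus for both genotypes together and not for the difference within either. Relative to these markers Icam1 was higher after ICH by 2.41 on the log2 scale in Fabp4flox/flox and by 3.68 in Fabp4CKO mice (exact p = 0.005). Vcam1 was higher by 0.37 and 1.10 (exact p = 0.02). Its groups overlapped in Fabp4flox/flox mice, with ICH mouse 1 at -3.70 and the sham mice at -3.50 to -3.36. Pecam1 was higher by 0.94 and 0.96 and Cdh5 by 0.98 and 0.88 (exact p = 0.005 for each). Cd34 was higher by 0.82 and 1.12 (exact p = 0.005), Icam2 by 0.84 and 0.48 and Selplg by 0.28 and 1.40 (exact p = 0.02 for each). For Selplg too the Fabp4flox/flox groups overlapped, with ICH mouse 1 at -3.55 and the sham mice at -3.54 to -3.22. Sele was higher by 3.93 and Selp by 5.6 in Fabp4flox/flox mice (exact p = 0.005 over both genotypes), and the size depends on the 0.5 added to sham counts of 0 or a few. Over both genotypes Sele was at 5.02 and Selp at 7.06, and with 2 added in place of 0.5 they were at 3.53 and 5.85 (exact p = 0.005 for each). A ratio of this kind shows unequal change only.

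The choice of denominator decided several of these. With the 3 markers Cldn5, Erg and Tie1 alone, 5 of the 9 members had an exact p under 0.05, namely Icam1 at 2.54 (exact p = 0.005), Selp (exact p = 0.005), Sele (exact p = 0.01), Cdh5 at 0.42 (exact p = 0.035) and Pecam1 at 0.44 (exact p = 0.045). Vcam1 was then at 0.23 (exact p = 0.545), Icam2 at 0.15 (exact p = 0.515), Cd34 at 0.46 (exact p = 0.08) and Selplg at 0.33 (exact p = 0.42). Icam2 was at an exact p of 0.05 without ICH-Fabp4CKO mouse 1 or mouse 3, and at 0.08 without both libraries that stood apart, where the other 8 members were at 0.01, the smallest p that its 100 arrangements allow.

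**Figure D4:**
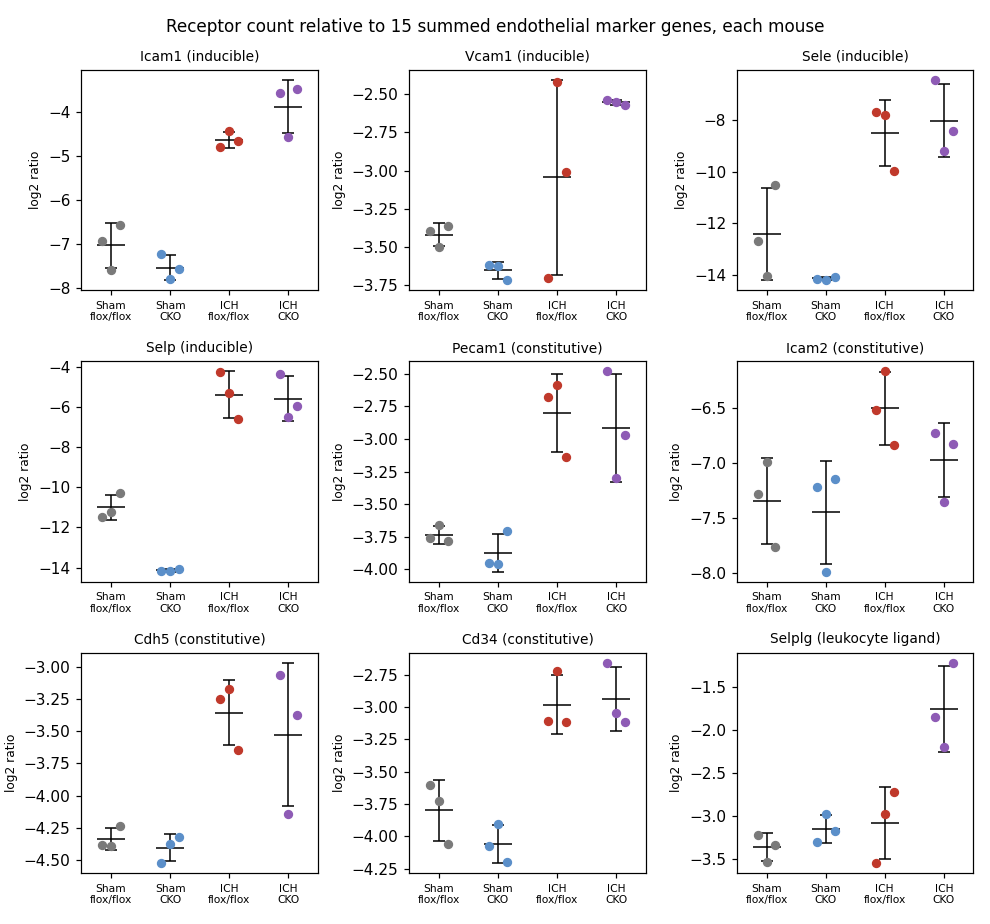
Log2 ratio of each member's count, plus 0.5, to the summed count of 15 endothelial markers in each mouse, with the group mean and SD (n = 3). The ICH groups overlap in every panel except that of Selplg, where all ICH-Fabp4CKO mice lie between -2.21 and -1.22 and all ICH-Fabp4flox/flox mice between -3.55 and -2.73.

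Between the ICH groups the same ratios placed the members differently from CPM. Pecam1 in ICH-Fabp4CKO was at 0.922 times its ICH-Fabp4flox/flox ratio (exact p = 0.8), Cdh5 at 0.889 (exact p = 0.7), Cd34 at 1.03 (exact p = 0.7) and Icam2 at 0.722 (exact p = 0.3). Vcam1 was at 1.41 (exact p = 0.4), Icam1 at 1.69 (exact p = 0.2), Sele at 1.38 (exact p = 0.7) and Selp at 0.862 (exact p = 0.8). For these 8 genes the groups overlapped. Selplg was at 2.51 with no overlap (exact p = 0.1). The endothelial sums were 512 to 557 CPM in ICH-Fabp4CKO and 877 to 1720 CPM in ICH-Fabp4flox/flox mice. The microglial sums were 1493 to 4355 and 1449 to 1697 CPM, and the part of either in this ratio was not tested. With 3 mice against 3 this test cannot go below 0.1, so that it cannot place any of these differences past 0.05.

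The patterns of the members over the 12 libraries were compared by the root mean square difference of mean-centred log2 CPM, as a description. Pecam1 and Cdh5 were each other's nearest gene of all 15094, at 0.12, and Ehd2 (0.21) and Tedc1 (0.21) came second. Cd34 was nearest to Cav1, the caveolin of endothelial caveolae, at 0.14 and to Trf at 0.15. Icam2 was nearest to Meox1 at 0.26 and to Erg, an endothelial transcription factor, at 0.27. Vcam1 was nearest to Cnn3 at 0.20 and Fxyd1 at 0.22, and among the members to Cd34 at 0.32. Icam1 was nearest to Nlrc5 and Tap1, genes of the MHC class I pathway, at 0.32 each. The selectins had no close neighbour, with Tarm1 (0.52) and Cxcl1 (0.57), a neutrophil chemokine, nearest to Sele and Hmox1 (0.59), the heme-degrading enzyme, and Clec4n (0.75) nearest to Selp. These measures rest on the same 12 libraries and on a shared separation of ICH from sham.

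Partners of the receptors were read from lists given with the members. Over all genes tested, 26.2% were higher and 19.3% lower after ICH in Fabp4flox/flox mice, and 24.5% and 11.1% in Fabp4CKO mice. These shares stand beside the counts of every list that follows. Among 12 leukocyte counter-receptors, which hold the integrins that bind ICAM-1 and VCAM-1, 10 were higher after ICH in Fabp4flox/flox mice and 1 was lower, with a median log2 fold change of 3.63. Glg1, an E-selectin ligand of the Golgi, fell by 0.95 on the log2 scale (adjusted p = 0.0162, edgeR). In Fabp4CKO mice 11 of the 12 were higher. Of 10 selectin ligand enzymes 8 were tested and 6 were higher in Fabp4flox/flox mice, from Tpst2, a tyrosine sulfotransferase, at 0.80 (adjusted p = 0.0108) to Gcnt1, a core 2 branching enzyme, at 2.88 (adjusted p = 0.000607). In Fabp4CKO mice 5 of the 8 were higher.

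Of 16 other adhesion and transmigration receptors found in the table, 14 were tested in Fabp4flox/flox mice. After ICH 9 were higher and 1 lower, where 26.2% and 19.3% of all genes tested were. Esam, a tight junction protein of endothelium and platelets, rose most at 2.31 (adjusted p = 0.00167, edgeR) and Cd99l2, a transmigration receptor, fell by 0.81 (adjusted p = 0.00947). In Fabp4CKO mice 7 were higher and 1 lower, where 24.5% and 11.1% of all genes tested were. Between the ICH groups 6 of the 14 were lower under the second rule, where 4.43% of all genes tested were. Esam was among them at -1.34 (adjusted p = 0.313, edgeR). Of 9 genes of the VE-cadherin complex and its anchors 7 were higher in Fabp4flox/flox and 6 in Fabp4CKO mice, led by Msn, the moesin gene, at 3.59 in Fabp4flox/flox (adjusted p = 0.000414). The smallest, Rdx at 0.55 (adjusted p = 0.0372), lost its call under relative log expression normalization, with total counts, with no filter and with any of 5 of the 6 libraries left out.

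Of 13 genes of TNF and IL-1 signalling to NF-kB, 12 were higher after ICH in each genotype. Of all genes tested, 26.2% were higher in Fabp4flox/flox and 24.5% in Fabp4CKO mice. In Fabp4flox/flox mice the 12 went from Traf2, an adaptor of the TNF receptors, at 0.85 (adjusted p = 0.00623, edgeR) to Il1b at 4.75 (adjusted p = 0.00567). Between the ICH groups none of the 13 passed the adjusted threshold, and 1 was higher under the second rule, where 4.4% of all genes tested were. Of 7 genes of the Weibel-Palade body, the endothelial granule that stores P-selectin, 6 were tested in Fabp4flox/flox mice. Vwf, its main cargo, rose by 3.59 (adjusted p = 0.00138) and 5 of the 6 rose in all, while Stxbp5, a brake on granule release, fell by 0.81 (adjusted p = 0.00501). In Fabp4CKO mice 5 rose and none fell. All 6 sheddases, proteases that cut receptors such as VCAM-1 from the cell surface, were higher after ICH in both genotypes, from Adam10 at 1.03 (adjusted p = 0.00268) to Adam8 at 7.18 (adjusted p = 0.000363) in Fabp4flox/flox mice. Leukocyte markers rose as well, with the monocyte and macrophage sum at 12.7 to 49.6 CPM in Sham-Fabp4flox/flox and 763 to 1990 CPM in ICH-Fabp4flox/flox mice. Neuron markers summed to 3934 to 5031 CPM in the sham and 1126 to 2809 CPM in the ICH mice of that genotype. The part of these cells in the genes that rose or fell, Stxbp5, Glg1 and Cd99l2 among them, was not tested.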

How the data were processed

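Libraries of polyadenylated RNA from 12 mice were sequenced on a NovaSeq instrument. The authors deposited estimated counts (expected counts) per gene without normalization. The submitters' processing notes name Bowtie2 2.2.8, HISAT2, StringTie 1.3.1 and DESeq2, without their roles, and the genome build is not given in the sources used here. Some 7.36% to 8.69% of values per library were not whole and were rounded. All sample columns were used. Total counts were 15650813 to 22406216 per library, and limits from counts cover counting error only.

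Each comparison was fitted on its 6 libraries (12 for the interaction) with edgeR 4.0.16 in R 4.3.3 (TMM, filterByExpr with a minimum count of 10 and total of 15, quasi-likelihood F-test, Benjamini-Hochberg adjustment over all genes tested), and p-values measure the spread between mice. Intervals use the fitted SE and its degrees of freedom. A second rule took a 1.5-fold change with p below 0.05 before adjustment. The floor was 3 counts over a group. Log2 CPM used a prior count of 2 and ratios to endothelial markers a prior of 0.5. Levels per kilobase used merged exon lengths of GENCODE M21. Ratios were compared by exact permutation with unadjusted p. The fit was tested on simulated data. Figures were drawn with matplotlib 3.10.9.

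The members, lists and tests were chosen with earlier results of these data known. Genes named beside the 9 members are, for each list, those with the largest and smallest change past the adjusted threshold after ICH in Fabp4flox/flox mice, list genes past it between genotypes or in the interaction, and the 2 genes nearest each member in pattern. One gene that this rule named is not reported here. Markers named in the platelet list, the choroid plexus list and the reduced denominator are given for their identity. Alternatives were relative log expression or no scaling, no or a stricter filter, DESeq2 1.42.0, a block for the replicate number, one fit of all 12 libraries, and each library left out. For the ratios they were another denominator and a prior of 2. Replicate numbers were not taken as pairs.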

Additional observations from a re-analysis of the deposited data

Results flagged for a closer look

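In the interaction test over 12 libraries (edgeR, p adjusted over all genes tested) the choroid plexus markers Ttr and Folr1 passed the threshold. Ttr was at 5.73 on the log2 scale (SE 0.63, adjusted p = 0.0278) and Folr1 at 7.33 (SE 0.88, adjusted p = 0.0278). Ttr was high in the 3 Sham-Fabp4flox/flox mice and low in the other 9. For Ttr, a genotype difference in the effect of ICH cannot be told apart here from choroid plexus RNA in those 3 sham libraries. Of 4 choroid plexus markers tested in Fabp4CKO mice, 1 was higher after ICH, at 4.10, where 24.5% of all genes tested were. Between the ICH groups the largest log2 difference of the list was 4.34, higher in ICH-Fabp4CKO mice. The part of such a rise in the Folr1 term was not tested. Both lost the adjusted call with the replicate block (0.0997), without both libraries that stood apart (0.0894), and without any 1 of 7 libraries (0.0989 to 0.150), which were Sham-Fabp4flox/flox mouse 2, each Sham-Fabp4CKO mouse, ICH-Fabp4flox/flox mouse 2 and ICH-Fabp4CKO mice 1 and 3. No member of the adhesion receptors met this test. Groups of 3 mice are too small for the check of single samples used here.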

How the results depend on the processing

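All 230 log2 fold changes of members for ICH against sham, over the alternatives run, stayed above 0. For the selectins that direction was set in advance wherever the filter let them pass through the ICH mice alone. In Fabp4flox/flox mice 9 members were called with each library left out, where 17.6% to 28.9% of all genes tested were higher. With 10 counts required in every library 7 of 7 tested were called, where 25.2% were higher. In Fabp4CKO mice leaving out 1 library gave 3 to 9 calls, where 4.69% to 34.8% of all genes tested were higher. After ICH, 2 members were lower in Fabp4CKO mice with DESeq2, where 2.21% of all genes tested were. With all 12 libraries in one fit 2 were lower, where 1.38% were, against 0 in the main fit. The cause was not tested. Under the second rule leaving out 1 library gave 3 to 6, and leaving out both libraries that stood apart gave 3. In sham leaving out 1 library gave 0 to 3 calls, the 3 in a fit that called 9.12% of all genes tested lower. Under the second rule it gave 0 to 1. That count was 1 with no filter (Selp), with 10 counts in every library, with DESeq2 and with the replicate block (Icam1 for each), against 0. The interaction gave 0 calls throughout and 0 to 4 under the second rule. For ratios to endothelial markers, 5 of 9 members had an exact p under 0.05 with Cldn5, Erg and Tie1 as the denominator, and 8 to 9 with 1 library left out.

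Over single genes, 5 values changed sign, each with 1 library left out. After ICH these were Sele (range -1.85 to 0.069), Icam1 (-0.50 to 0.031) and Selplg (-0.039 to 0.54). Selplg also changed sign in sham (-0.021 to 0.18) and in the interaction (-0.16 to 0.42). With the replicate block 9 members were called in Fabp4flox/flox mice after ICH, where 27% of all genes tested were higher. In Fabp4CKO mice 8 were called, where 17.5% were higher. It called 0 members between the genotypes and 0 in the interaction. Under the second rule it gave 4 after ICH, without Vcam1, and 4 in the interaction, with Cd34. Shares of all genes under the second rule were not counted for the alternatives. For the ratios, Vcam1 and Selplg had an exact p of 0.0625 within pairs. Same-numbered mice correlated on average by 0.115 for ICH against sham in Fabp4flox/flox mice (lowest 0.025), where every mouse but Sham-Fabp4flox/flox mouse 2 correlated best with its own number, by -0.0049 in Fabp4CKO mice, by -0.144 between the ICH groups and by -0.0669 between the sham groups. The number is not taken as a pairing, since a pair was under 0.1 in each comparison. The selectins had 0 to 6 counts per sham library, which limits what can be compared there.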
